A study of Mus musculus with 4 samples.

Results

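Zeb1 peaks of naive mESC were described for 8 genes of somite segmentation, Mesp1, Mesp2, Msgn1, Tbx6, Ripply1, Ripply2, Lfng and Hes7. The genes were chosen by name, and a peak belonged to a gene when the authors' annotation named that gene for it. Of the 17435 peaks in the deposited list, 7 were named for these genes. They fell on 6 of the 8 genes, and Msgn1 and Ripply1 had none. Over the 21031 protein-coding genes of the reference, 53.2% were named for at least 1 peak.

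The cells were D3, a widely used line of mouse embryonic stem cells, and spent 24 h in ground state medium (GS). GS is free of serum. It blocks MEK with PD0325901 at 1 μM, blocks GSK-3 with CHIR99021 at 3 μM and holds LIF at 20 ng/mL. All libraries came from these cells without a genetic change given in the sources used here, 3 of them after ChIP with 8 μg of an anti-Zeb1 antibody and 1 from input chromatin without ChIP. Each value below is the authors' mean for a unified peak, so no spread between libraries, SD or test could be given, and differences between peaks are described only.

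Somites are blocks of mesoderm that bud off in pairs from the presomitic mesoderm. A clock of Notch, Wnt and FGF signaling, driven by the repressor Hes7 and the glycosyltransferase Lfng, sets their rhythm, and Tbx6 with Notch switches on Mesp2 where the next boundary forms. Zeb1 is a zinc finger repressor that binds E-boxes, and mESC in GS have not entered the mesoderm lineage in which these genes act.

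Each of the 7 peaks held at least 1 match of the 8-letter Zeb1 motif, NNNACCTG with C or T as the first and as the third letter, searched on both strands. The same was found in 76.8% of all peaks, so that the count describes these sequences and does not set them apart. The match closest to the centre of each peak is printed below with 10 bases on either side, 5′ to 3′ on the strand of the motif, from GRCm38.p6, which is the mm10 assembly of the peaks. Capitals mark the motif. On the forward strand lay the windows of Mesp1 (chr7:79793699-79793726), Mesp2 (chr7:79811518-79811545), Tbx6 (chr7:126780438-126780465) and Ripply2 (chr9:87016171-87016198). On the reverse strand lay those of Lfng (chr5:140610920-140610947 and chr5:140622956-140622983) and Hes7 (chr11:69120778-69120805).
Mesp1: tccagtctgcTCCACCTGgaccatattt
Mesp2: gacctctgatCTCACCTGaaaaccttgg
Tbx6: ctggatccctCTTACCTGcaacgtgtct
Ripply2: ggtcacagccCCTACCTGaaccagaggc
Lfng, peak at the TSS: cagccaagacTCCACCTGgcccagcgct
Lfng, peak past the gene: gtgcctggcgCCCACCTGctcatcaccg
Hes7: cttgcgataaTCCACCTGccccagcttc

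These matches lay 712 bp from the peak centre at Mesp1, 381 bp at Mesp2, 474 bp at Tbx6, 509 bp at Ripply2 and 116 bp at Hes7. In the peak at the Lfng TSS the closest match was 1258 bp from the centre, and in the peak past the Lfng gene it was 394 bp away. None of the 7 peaks held the motif in the 200 bp at its centre, where 16.7% of all peaks did. Peak centres are midpoints of broad regions, and the list gives no summit. Matches per kb ranged from 0.455 at Mesp1 to 1.76 at Mesp2, against a median of 0.714 over all peaks.

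**Figure D1:**
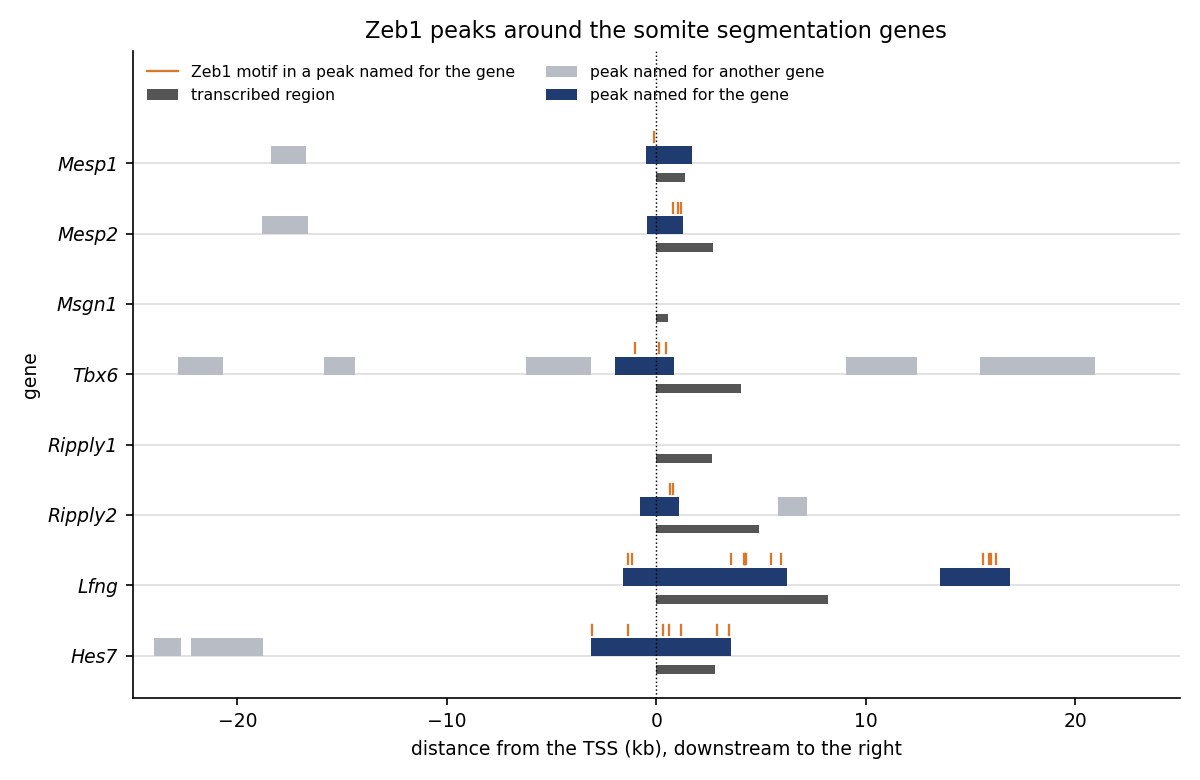
Zeb1 peaks within 25 kb of the TSS of each gene, drawn as bars by distance from the TSS (kb, downstream to the right), with the transcribed region below and Zeb1 motif matches of the gene's own peaks as ticks above. Peaks of Mesp1, Mesp2, Tbx6, Ripply2, Lfng and Hes7 reach across the TSS, and no peak is drawn for Msgn1 or Ripply1.

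Mesp1 and Mesp2 are paralogous bHLH factors, Mesp1 of the earliest cardiac and other mesoderm and Mesp2 of the segment boundary, and they are neighbours on chromosome 7 that are transcribed away from each other. Their TSSs lay 17137 bp apart. Each had its own peak at the TSS, and the 16200 bp between the peaks held no other peak. The Mesp1 peak (chr7:79791901-79794100) had 84.3 treatment reads against 20.6 in the input. Its enrichment, the authors' ratio to input after scaling to the mapped reads, was 8.17. The Mesp2 peak (chr7:79810301-79812000) had 49.0 treatment reads against 24.9 in the input, at an enrichment of 4.19. The peak of Mesp1 thus had more treatment reads and fewer input reads than that of Mesp2. In enrichment, 71.6% of all peaks were below the Mesp1 peak and 14.8% below the Mesp2 peak.

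Peaks differed in length, so the authors' mean reads were also divided by the length of the unified peak and expressed per kb. What the authors averaged within a peak is not explained in the sources used here. The values per kb are therefore scaled means and need not be the read density of the whole peak, above all in long peaks. Mesp1 then had 38.3 treatment reads per kb, the highest of the 7 peaks, and 91.3% of all peaks had fewer. Mesp2 had 28.8 treatment reads per kb, fewer than Mesp1 but above the median of all peaks of 25.1. In the input Mesp1 had 9.35 reads per kb and Mesp2 had 14.6, against a median of 8.07, and 92.9% of all peaks had fewer than Mesp2. The Mesp2 peak thus had both fewer treatment reads and more input reads per kb than the Mesp1 peak.

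Both Mesp peaks lay mainly downstream of the TSS. That of Mesp1 ran from 510 bp upstream to 1689 bp downstream and covered all 1350 bp of the gene, with its centre 590 bp downstream in the coding part of exon 1 of 2. That of Mesp2 ran from 426 bp upstream to 1273 bp downstream and covered 47.1% of the gene, with its centre 423 bp downstream, also in the coding part of exon 1 of 2. The sequence on either side of these TSSs differed. In the 1 kb upstream of the TSS Mesp1 had 10 CpG and in the 1 kb downstream 93. At Mesp2 the numbers were 10 and 68. As CpG observed/expected, the ratio to the number that the C and G content gives, Mesp1 had 0.154 upstream and 0.822 downstream, and Mesp2 had 0.166 and 0.661.

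The distal part of the Mesp1 promoter is shown because it held both a Zeb1 match and a T-box core and no CpG. It spans chr7:79793691-79793840 on the reverse strand, from 250 to 101 bases before the TSS, and comes from RefSeq GRCm38.p6. Capitals mark the core AGGTGT, to which T-box factors such as Tbx6 bind, and the reverse complement of the Zeb1 motif.
Mesp1: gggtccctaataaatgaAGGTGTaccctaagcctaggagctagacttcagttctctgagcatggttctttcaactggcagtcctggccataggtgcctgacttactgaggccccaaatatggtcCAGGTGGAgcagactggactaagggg

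The core starts 233 bases and the Zeb1 match 126 bases before the TSS. Of the 300-base promoter windows of protein-coding genes, from 250 bases before to 50 after the start, 15.7% held the Zeb1 motif and 12.7% held AGGTGT on either strand. The reverse complement of AGGTGT can lie wholly within a Zeb1 match, as in matches of the Mesp2, Hes7 and both Lfng peaks, but the matches printed for Mesp1 did not overlap. Mesp1 was the only one of the 8 genes with the Zeb1 motif in that window. A second AGGTGT of Mesp1 and the single one of Mesp2 started 7 and 29 bases downstream of the TSS, both on the other strand.

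Tbx6, the T-box factor that commits cells to presomitic mesoderm, had the peak with the lowest enrichment of the 7. The peak (chr7:126779501-126782350) held 35 treatment reads against 20.5 in the input, for an enrichment of 3.30, and 6.63% of all peaks were lower. Per kb it had 12.3 treatment reads, with 2.00% of all peaks lower, and 7.19 input reads, under the median of 8.07. The peak was 2850 bp long, and both its treatment and its input reads per kb were under the medians of all peaks. The centre lay 558 bp upstream of the TSS, the only one of the 7 that was upstream, and 21.3% of the gene was covered.

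Tbx6 sits among many genes, and 16 peaks were centred within 100 kb of its TSS. The median over protein-coding genes was 2, and 98.2% of genes had fewer than Tbx6. A separate peak (chr7:126775251-126778350) was centred 4683 bp upstream of the Tbx6 TSS, within the promoter distance of 5 kb, but was named for Ypel3, whose own TSS was 175 bp away. Its 55.4 treatment reads, 23.8 input reads and enrichment of 5.04 were each higher than at Tbx6. The TSS of Ypel3 was also within 5 kb of the centre of the Tbx6 peak, the only other protein-coding TSS at that distance from any of the 7 peaks.

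Msgn1, a bHLH factor of the presomitic mesoderm that acts with Tbx6, had no peak within 50 kb of its TSS. The peaks closest to it were centred 56977 bp upstream and 58623 bp downstream and were named for Smc6 and Kcns3, each less than 50 bp from the TSS of the named gene. Their enrichments were 4.55 and 8.53. Msgn1 is a gene of 1 exon on chromosome 12. No value below the limits of the list is given for Msgn1, so its own read numbers are unknown.

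Ripply1 and Ripply2 are related corepressors that end the activity of Tbx6 and Mesp2 once a boundary is set, and they differed widely in these data. The Ripply2 peak (chr9:87014751-87016600) had 57.6 treatment reads against 12.4 in the input. Its enrichment of 9.91 was the highest among the peaks at a TSS of the 8 genes. Of all peaks, 84.9% had a lower enrichment. Per kb it had 31.1 treatment reads and 6.72 input reads, and its centre lay 138 bp downstream of the TSS. The centre fell in the coding part of exon 1 in 2 of the 4 RefSeq transcripts and in intron 1 in the rest. The next peak, 6513 bp downstream of the Ripply2 TSS, was named for Cyb5r4 and had an enrichment of 4.15.

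Ripply1, on chromosome X, had 0 peaks within 100 kb, as did 17.3% of protein-coding genes. The peak closest to its TSS was 171578 bp downstream and was named for Rnf128. Of the 773 chromosome X genes with a promoter sequence in the reference table, 9.31% had a peak centred within 5 kb of the TSS. The distal promoters of Ripply2, Ripply1 and Msgn1 are printed to show how they differed in CpG, which capitals mark. Each spans 250 to 101 bases before the TSS in RefSeq GRCm38.p6, at chr9:87015287-87015436 on the forward strand for Ripply2, and on the reverse strand at chrX:139782454-139782603 for Ripply1 and chr12:11209049-11209198 for Msgn1.
Ripply2: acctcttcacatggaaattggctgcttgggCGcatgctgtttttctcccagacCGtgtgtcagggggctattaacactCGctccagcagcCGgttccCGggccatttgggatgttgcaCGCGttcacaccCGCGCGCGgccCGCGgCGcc
Ripply1: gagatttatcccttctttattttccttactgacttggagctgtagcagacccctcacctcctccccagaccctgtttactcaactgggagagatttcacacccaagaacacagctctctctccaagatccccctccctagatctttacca
Msgn1: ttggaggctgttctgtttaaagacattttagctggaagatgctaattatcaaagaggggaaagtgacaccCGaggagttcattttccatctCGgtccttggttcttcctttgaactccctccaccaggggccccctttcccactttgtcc

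These stretches held 14 CpG in Ripply2, 0 in Ripply1 and 2 in Msgn1. In the whole promoter window, CpG observed/expected was 1.06 for Ripply2, higher than in 95.0% of genes, 0 for Ripply1 and 0.197 for Msgn1. The GC content was 63.3% for Ripply2, 49.7% for Ripply1 and 52.3% for Msgn1. In the 1 kb downstream of the TSS, Ripply1 had 10 CpG and Msgn1 had 26. Of the genes with a peak, Tbx6 had 15, fewer than Msgn1, Hes7 had 35, Ripply2 had 59, Mesp2 had 68, Lfng had 76 and Mesp1 had 93. The numbers of genes with and without a peak thus overlapped.

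Lfng adds a sugar to Notch and so changes its response to ligands, and it was the only one of the 8 genes with more than 1 peak. The peak at the TSS (chr5:140605751-140613600) was 7850 bp long, longer than 99.6% of all peaks, and had 197.2 treatment reads and 39.8 input reads. Its enrichment was 8.73, with 76.7% of all peaks lower. It ran from 1590 bp upstream to 6259 bp downstream of the TSS, covered 76.3% of the gene and was centred in intron 1, 2334 bp downstream. Per kb its 25.1 treatment reads were at the median of all peaks.

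The other Lfng peak (chr5:140620901-140624250) covered none of the gene, beginning 13560 bp downstream of the TSS where the gene is 8205 bp long. Its centre, 15234 bp from the Lfng TSS, lay in the last exon of Ttyh3, a neighbour transcribed toward Lfng, in the 3′ UTR by the authors' annotation. With 66.5 treatment reads against 8.5 in the input, its enrichment was 14.8, the highest of the 7 peaks, with 96.6% of all peaks lower. Treatment reads per kb were 19.9, under the median, while its 2.54 input reads per kb were lower than in all but 1.37% of peaks. The next peak beyond it was named for Ttyh3, 28059 bp downstream of the Lfng TSS, with an enrichment of 4.90.

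Hes7, the bHLH repressor whose own cycling drives the segmentation clock, had a peak of 6650 bp (chr11:69117351-69124000) that reached past both ends of the gene of 2807 bp. Its 72.0 treatment reads stood against 30.6 in the input, an enrichment of 4.85, with 23.9% of all peaks lower. Per kb it had 10.8 treatment reads, and 1.11% of all peaks had fewer. Its centre lay 222 bp downstream of the TSS in intron 1. The next peak was named for Per1, 20503 bp upstream, and had an enrichment of 4.8. Lfng and Hes7, both oscillating genes of the clock, thus had the longest peaks of the 7. Input reads per kb were 5.06 in the Lfng peak at the TSS and 4.61 at Hes7, both under the median of 8.07. The means of these peaks had different divisors, 4 at Lfng and 8 at Hes7, so their treatment reads per kb were not compared.

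**Figure D2:**
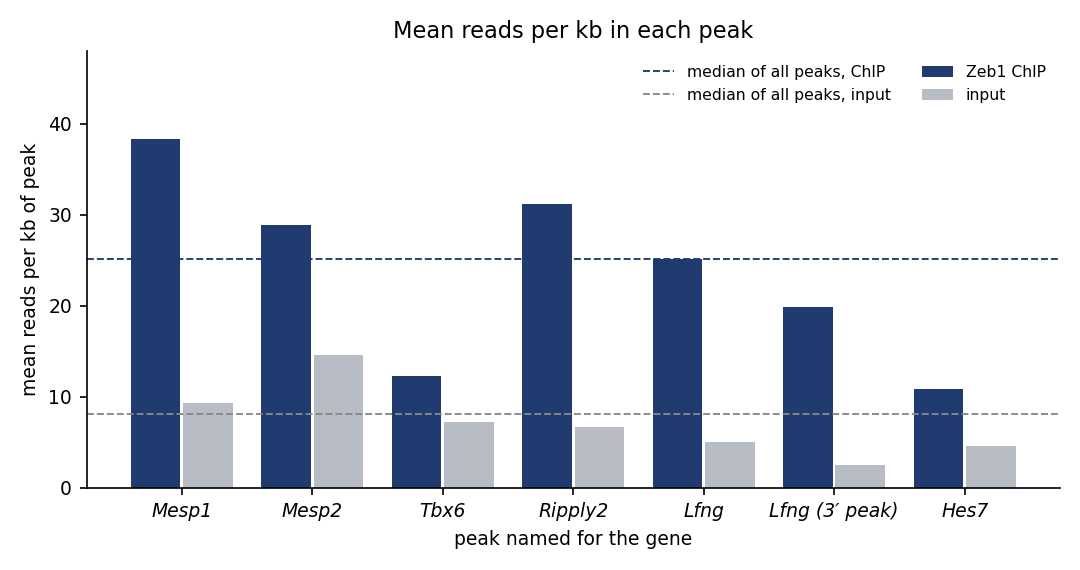
Mean reads divided by the length of the unified peak (per kb), in the Zeb1 ChIP and in the input, for each of the 7 peaks. Dashed lines are at the medians of all peaks (25.1 for ChIP and 8.07 for input). Tbx6 and Hes7 have the fewest ChIP reads per kb, at 12.3 and 10.8, and Mesp2 has the most input reads per kb, at 14.6.

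Taking the 7 peaks as one set, the median enrichment was 8.17, against 6.50 over all 17435 peaks. The 6 peaks at a TSS had a median of 6.51, against 6.74 over the 10698 peaks centred within 5 kb of the TSS of their gene. They fell in a lower and a higher set of 3. Tbx6, Mesp2 and Hes7 were between 3.30 and 4.85, under the lower quartile of all peaks of 4.91. Mesp1, Lfng and Ripply2 were between 8.17 and 9.91, around the upper quartile of 8.53. With an enrichment of at least 5 required, only the latter 3 of the 8 genes kept a promoter peak, as did 37.0% of all protein-coding genes. The median length of the 7 peaks was 2850 bp and that of all peaks 1850 bp.

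**Figure D3:**
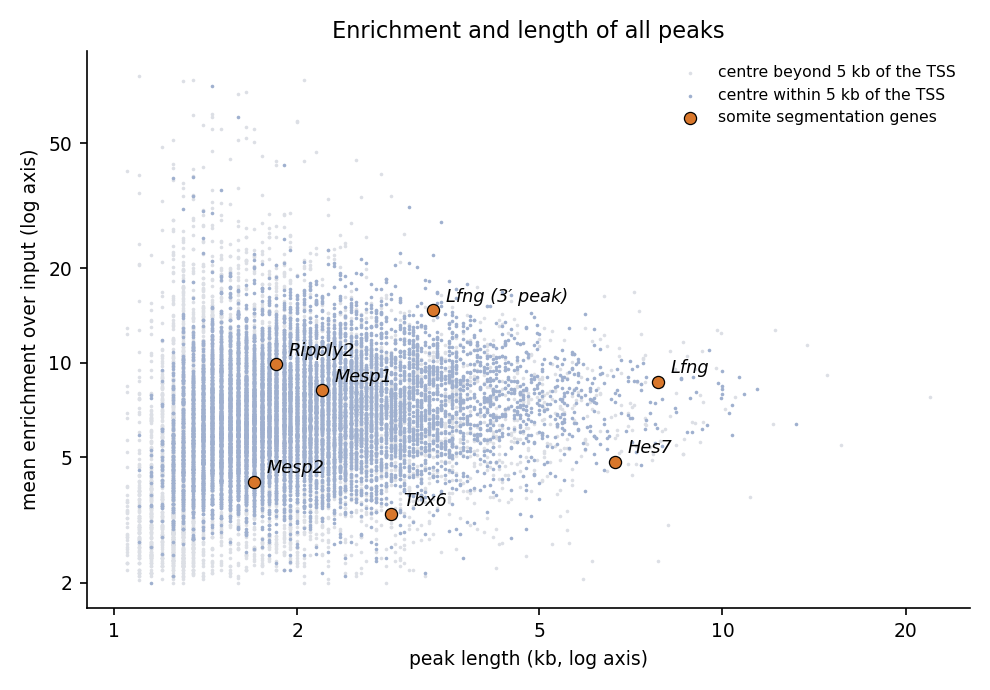
Mean enrichment over input against length for all 17435 peaks, both on log axes, with peaks centred within 5 kb of the TSS in darker blue and the 7 peaks of the somite segmentation genes in orange. Tbx6, Mesp2 and Hes7 lie between 3.30 and 4.85, and Lfng and Hes7 are among the longest peaks of the list.

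The authors call a peak a promoter peak when its centre lies within 5 kb of a TSS. By that distance 6 of the 8 genes had a promoter peak, and 45.0% of all protein-coding genes did. When any peak centred within 5 kb of a RefSeq TSS was counted, whichever gene it was named for, the number was again 6, against 51.5% of genes. With 8 genes these shares are a description.

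Promoter peaks were also counted by the CpG content of the promoter. A promoter sequence was in the table for all 8 genes and for 16853 protein-coding genes. Of genes with a CpG observed/expected of at least 0.6 in the promoter window, 68.3% had a promoter peak, and of those under 0.6, 18.7% did. Ripply2, at 1.06, and Lfng, at 0.688, were in the first class, and both had a peak. The other 6 were in the second class, where Hes7 (0.473), Mesp2 (0.403), Tbx6 (0.286) and Mesp1 (0.174) had a peak and Msgn1 (0.197) and Ripply1 (0) did not. Mesp1 and Msgn1 each had 4 CpG in this window, and among genes between 0.1 and 0.2, as both are, 7.62% had a promoter peak.

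**Figure D4:**
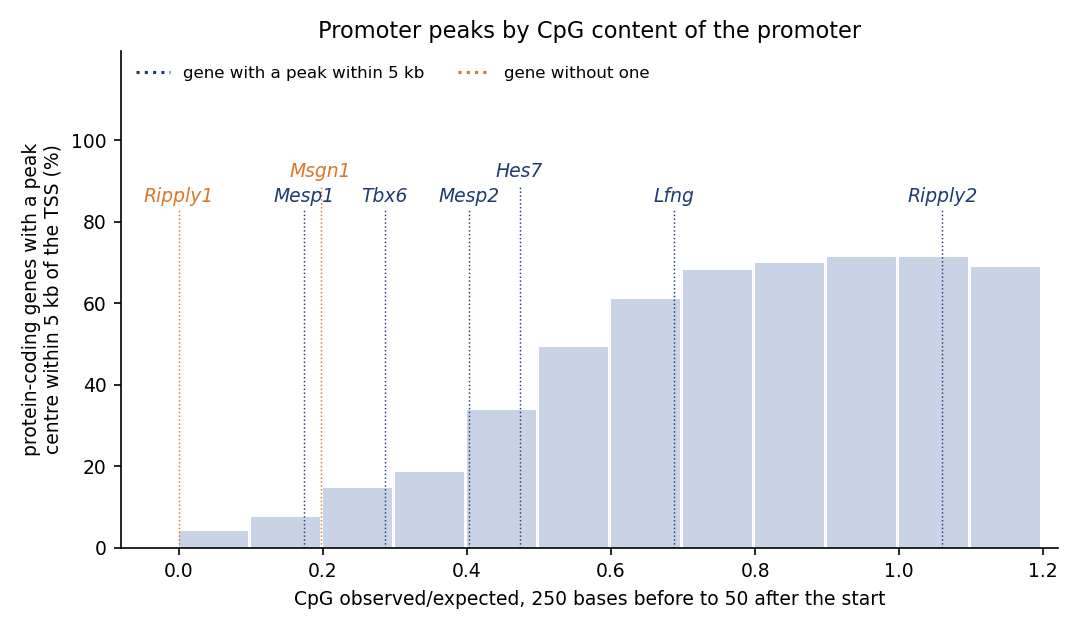
Share of protein-coding genes with a peak centred within 5 kb of the TSS (%), by CpG observed/expected of the promoter window in steps of 0.1, with the 8 genes marked by dotted lines. The share goes from 4.18% in the lowest step to 71.4% between 0.9 and 1.0, and the 119 genes at 1.2 or more are not drawn.

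The 1 kb on either side of the TSS, windows chosen after the values were seen, placed the genes differently. Over the genes with a single RefSeq TSS position, 77.6% had a promoter peak when CpG observed/expected was under 0.6 upstream and at least 0.6 downstream, the class of Mesp1, Mesp2 and Lfng. Of genes under 0.6 on both sides, the class of Msgn1, Ripply1, Tbx6 and Hes7, 18.0% had one. Ripply2 was at or above 0.6 on both sides, where 74.3% did. Lfng, at 0.599 upstream, was just under the limit, and Mesp1 and Mesp2 were in the class under 0.6 by the promoter window. Tbx6 and Hes7 had a peak in the CpG-poor class, and these were the peaks with the fewest treatment reads per kb of the 7. For Hes7 that rank depended on the division by the peak length of 6650 bp. Before division, 80.9% of all peaks had fewer treatment reads than the Hes7 peak, and 23.5% had fewer than the Tbx6 peak. A link between CpG content and treatment reads was not tested.

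Among 44 other genes of somite segmentation, in the Notch, Wnt and FGF arms of the clock, in retinoic acid and axis patterning, and in the boundary, polarity and early fate of somites, 36 (81.8%) had a promoter peak, against 45.0% of all protein-coding genes and 68.3% of those with a promoter CpG observed/expected of at least 0.6. The 74 peaks named for them fell on 40 genes (90.9%), against 53.2% of all genes. Pofut1, Dkk1, Cdx4 and Cer1 had none, and the peaks of Heyl, Epha4, Meox1 and Pax3, named after their values were seen, were all beyond 5 kb. Promoter peaks were found at 8 of 10 Notch genes, 7 of 8 Wnt genes, 8 of 8 FGF genes, 5 of 6 genes of retinoic acid and axis patterning and 8 of 12 of the boundary and early somite.

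The best promoter peaks of these 36 genes had a median enrichment of 8.53, against 6.84 over all genes with one. The highest was that of Aldh1a2, the enzyme that makes retinoic acid in the somites, with an enrichment of 15.5, 81.6 treatment reads and 10.3 input reads. Next came Uncx, a homeobox gene of the caudal half-somite, with 15.5, the protocadherin gene Pcdh8 with 15.1, the forkhead gene Foxc2 with 13.5 and Rbpj, the DNA-binding partner of Notch, with 13.1. All were above each of the 6 promoter peaks of Mesp1, Mesp2, Tbx6, Ripply2, Lfng and Hes7. Among the 5 lowest were the Wnt coreceptor gene Lrp6 with 4.15, the homeobox gene Cdx1 with 4.29, the Wnt inhibitor gene Nkd1 with 5.17 and the ERK phosphatase gene Dusp6 with 5.24. Only Tbx6 was below all 36 of them, and the lowest of them, Lrp6, was just below Mesp2.

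**Figure D5:**
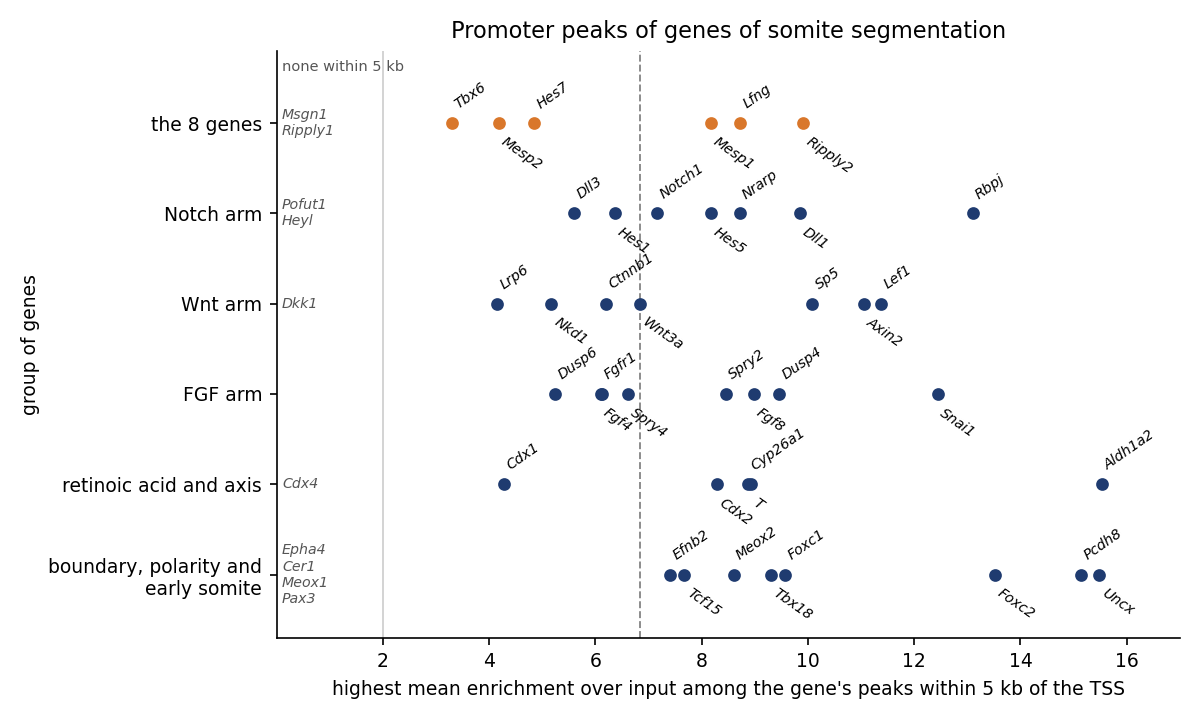
Highest mean enrichment over input among the peaks within 5 kb of the TSS of each gene, for the 8 genes (orange) and 43 of the 44 other genes of somite segmentation by arm (blue), with genes without such a peak listed at the left. The dashed line is the median over all genes with a promoter peak, 6.84, and the pale line is the authors' lower limit of 2.

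For comparison, 13 of 17 T-box genes (76.5%) had a promoter peak, against 45.0% of all protein-coding genes. Of genes with a promoter CpG observed/expected of at least 0.6, 68.3% had one. The best promoter peaks of the 13 T-box genes had a median enrichment of 8.93. Tbx6, at 3.30, was the lowest of the 13. Among Notch receptors, ligands and Hes1, 9 of 10 genes (90.0%) had a promoter peak, against the same 45.0% and 68.3%. Their best promoter peaks had a median of 8.63 and a range from 5.60 to 10.5. The promoter peak of Lfng, at 8.73, was close to that median. Tbx6 is itself 1 of the 17 T-box genes, and both lists share genes with the list of 44, so the counts are not independent.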

How the data were processed

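Zeb1 ChIP-seq libraries (3) and 1 input library of mESC in GS were processed by the authors, who drew 30 M Ion Torrent reads from each sample for alignment to mm10 by STAR (2.4.2a). Duplicates were marked and taken out with Picard (1.136), broad peaks came from PeakRanger, and HOMER (4.7) named the genes. Peaks with at least 20 treatment reads, 2-fold enrichment and an FDR of at most 0.05 in at least 2 libraries were unified and recounted. Deposited reads are a signal per peak, averaged by the authors for ChIP and for input. The deposited enrichment is the authors' averaged ratio of ChIP to input after scaling to mapped reads. The deposited p-value was 0 in all 17435 peaks and was not used. Reads at the 7 peaks were whole numbers divided by 2, 4, 7 or 8 (within 0.01), and the sources used here do not explain these divisors. Values per kb divide these means by the length of the unified peak. Depth per library is unknown from the list.

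Genes were matched by symbol and Entrez ID to RefSeq on GRCm38.p6. Of 17165 distances recomputed, 14150 matched within 2 bp with positive taken as downstream and 6 with positive taken as upstream, and the former was used. Counts, motif searches and CpG content were computed with Python 3.11.15, NumPy 2.4.6, pandas 2.3.3 and pysam 0.24.0, tested on simulated data, and drawn with Matplotlib 3.10.9. Where a gene had several promoter sequences, the one with the highest CpG observed/expected was used. The members and lists were chosen with earlier results of these data known. Named genes were the 8 genes, the listed genes of the pathway without a peak or among the 5 highest or 5 lowest in enrichment, genes with a TSS within 5 kb of a peak centre of the 8 genes, and the gene of the nearest other peak within 50 kb. Smc6, Kcns3, Rnf128, Heyl, Epha4, Meox1 and Pax3 were named outside this rule after their values were seen. For 1 gene that the rule takes, the values are not reported here. Alternatives were other distances, thresholds, assignments, motif searches and CpG limits.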

Additional observations from a re-analysis of the deposited data

How the results depend on the processing

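Of 28 alternatives, 21 gave a value within 1.5 times the reported one. Requiring an enrichment of at least 5 left 3 of 8 genes with an assigned peak and 3 with a promoter peak, and 4 of 7 peaks, while 12908 of all 17435 peaks passed. Tbx6, Mesp2 and Hes7 were lost, while 34 of the 44 other genes and 37.0% of all protein-coding genes kept a promoter peak. The median enrichment of the 7 peaks was 3.95 when computed as treatment over input reads, each plus 1, without scaling for mapped reads, and 3.00 over all peaks. With the motif searched in the 200 bp at the peak centre, 0 of 7 peaks had it. The share of genes with a promoter peak under the CpG limit was 10.4% with a limit of 0.4 and 32.6% with 0.8, and the alternative added after seeing the data, genes with a single start, gave 18.1%. Under distances of 1 and 10 kb, 40 treatment reads and RefSeq positions, 5 or 6 of the 8 genes and from 31 to 37 of the 44 other genes had a promoter peak. Of all protein-coding genes, 41.0% had one within 1 kb, 46.7% within 10 kb and 35.8% with at least 40 treatment reads. By RefSeq positions, 51.5% had a peak centred within 5 kb. Merging of close peaks left 7 peaks. No paired analysis was possible because the list holds no value per library, and for the same reason no library could be left out. Absence of a peak at Msgn1 and Ripply1 means that no region passed the authors' limits at this depth.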

Other observations

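Short cores of other factors of the pathway were counted in the peaks on both strands. The T-box core AGGTGT was present in 6 of the 7 peaks, all but that of Tbx6, and in 65.7% of all peaks. Mesp2 and Hes7 had 5 matches each, the Lfng peak past the gene had 4, Mesp1 had 3, the Lfng peak at the TSS had 2 and Ripply2 had 1. The core TGGGAA, bound by the Notch partner Rbpj, was present in all 7 peaks and in 82.9% of all peaks, with 14 matches at Hes7, 11 in the Lfng peak at the TSS, 8 at Tbx6, 4 each at Mesp2 and Ripply2, 3 in the Lfng peak past the gene and 2 at Mesp1. The counts were not scaled by peak length, which ran from 1700 bp at Mesp2 to 7850 bp in the Lfng peak at the TSS. The median length of the 7 peaks was 2850 bp, against 1850 bp over all peaks. Some AGGTGT matches lie within Zeb1 matches, and 6-letter cores are frequent, so these numbers describe the sequences.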
